A study of Mus musculus with 12 samples.

Results

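The 34 genes described here encode proteins that regulate pre-mRNA splicing. They were chosen by name, with earlier results of these data known. They were Khdrbs1, Khdrbs2, Khdrbs3 and Qk (STAR proteins), Nova1, Nova2, Rbfox2, Rbfox3, Elavl2, Elavl3, Elavl4 and Srrm4 (RNA-binding regulators best known from neurons), Ptbp1, Ptbp2, Celf1, Celf2, Celf4, Mbnl1 and Mbnl2, the SR and SR-related genes Srsf1, Srsf2, Srsf3, Srsf4, Srsf5, Srsf6, Srsf7, Srsf10, Srsf11, Tra2a and Tra2b, and Hnrnpa1, Hnrnpa2b1, Hnrnpu and Hnrnpk. Each was read in its own row of the count tables and, by the rule that defined the set, also in any feature, meaning an annotated gene row, with at least 50% of its exon bases inside the gene on the opposite strand (GENCODE release M21, GRCm38, the assembly also called mm10). That gave 18 opposite-strand features in 12 of the 34 genes, out of 55471 features in all. The counts of these features were summed per gene and treated as reads of that gene, and the sum is called its opposite-strand sum.

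Mixed cortex and hippocampus came from adult male mice aged 3 to 5 months, of a strain labelled C57BL6JL with no transgene named. Naive mice were handled alongside mice given MECS, maximal electroconvulsive stimulation, at 85 mA for 1 s and killed 90 min later. Tissue of both groups was irradiated with ultraviolet light at 400 mJ/cm2, which crosslinks RNA to protein. RNA of the lysate was the input, and RNA precipitated with an antibody against U1-70K, a protein of the U1 small nuclear ribonucleoprotein, is called U1 RNA here. There were 3 libraries in each of 4 groups, which were input and U1 RNA of naive mice and input and U1 RNA of MECS mice, and title prefixes tied each U1 library to the input of 1 of 6 animals. No control precipitate was analysed here, so differences in RNA recovery that have nothing to do with U1 also enter a U1 to input ratio.

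U1 base-pairs with the 5′ splice site, and it also protects nascent transcripts from cleavage at polyadenylation signals inside introns. Splicing regulators bind short motifs near alternative exons and promote or hinder the assembly of the spliceosome there. Many of them control their own pre-mRNA by including a poison exon that sends the transcript to nonsense-mediated decay, and neurons express several family members that other cells lack.

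The libraries held between 704432 (naive input 2) and 1962312 (naive U1 2) reads counted in genes, which was 1.42 to 1.84% of the listed reads. How strand was treated in counting is not given in the sources, so reads of a gene and of an RNA on its other strand cannot be told apart, and a value below is that of the named feature or sum. In this tissue homogenate, fewer cells of a type and less RNA per cell cannot be told apart either. Levels are given as CPM, the share of a library's scaled gene counts as edgeR reports it. Among markers of the tissue's cell types, all 9 neuronal genes had counts in their own rows, and the opposite-strand sums of the 5 with such features, Rbfox3 among them, totalled 5001 to 6553 CPM in naive input, 4707 to 6709 in MECS input, 2201 to 2743 in naive U1 and 2744 to 3225 in MECS U1. The same sums for pericytes and smooth muscle (3 of 7 genes) ran the other way, at 242 to 405, 273 to 388, 1355 to 2454 and 1228 to 1888 CPM. Astrocyte sums (2 of 6 genes) were 4102 to 6324, 3648 to 5405, 1083 to 1263 and 1397 to 1458 CPM in the same order, and the 1 endothelial gene with such a feature had 227 to 264, 179 to 306, 599.7 to 1114 and 627 to 973 CPM. Of 3 red blood cell genes, 1 had counts in its own row and none had an opposite-strand count. The part of these shifts in the results below was not tested.

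By their own rows the 34 genes were sparsely counted. With all 12 libraries added, the median was 17.6 counts per kb of exon, from 0.975 for Tra2b, a splicing activator of the SR family, to 286 for Hnrnpu, a nuclear matrix RNA-binding protein. The 17 opposite-strand features that could be tested held a median of 4458 counts per kb of exon, from 508 to 10457.5. Own rows of 17 genes passed the filter on low counts in every comparison, those of 3 more passed in some, and those of 14 passed in none. All 12 opposite-strand sums were tested in every comparison, and 9 genes could be tested by neither reading. Khdrbs1, which encodes Sam68, the target of the other antibody in the study's protocol, had 1 to 6 counts per library and no opposite-strand feature, so it was among these 9 genes. The sums made up 99.4% of the reads assigned to Tra2a, 99.2% for Srrm4, 99.0% for Khdrbs2 and 73.6% for Hnrnpu, which was the lowest share among the 12 genes.

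**Figure D1:**
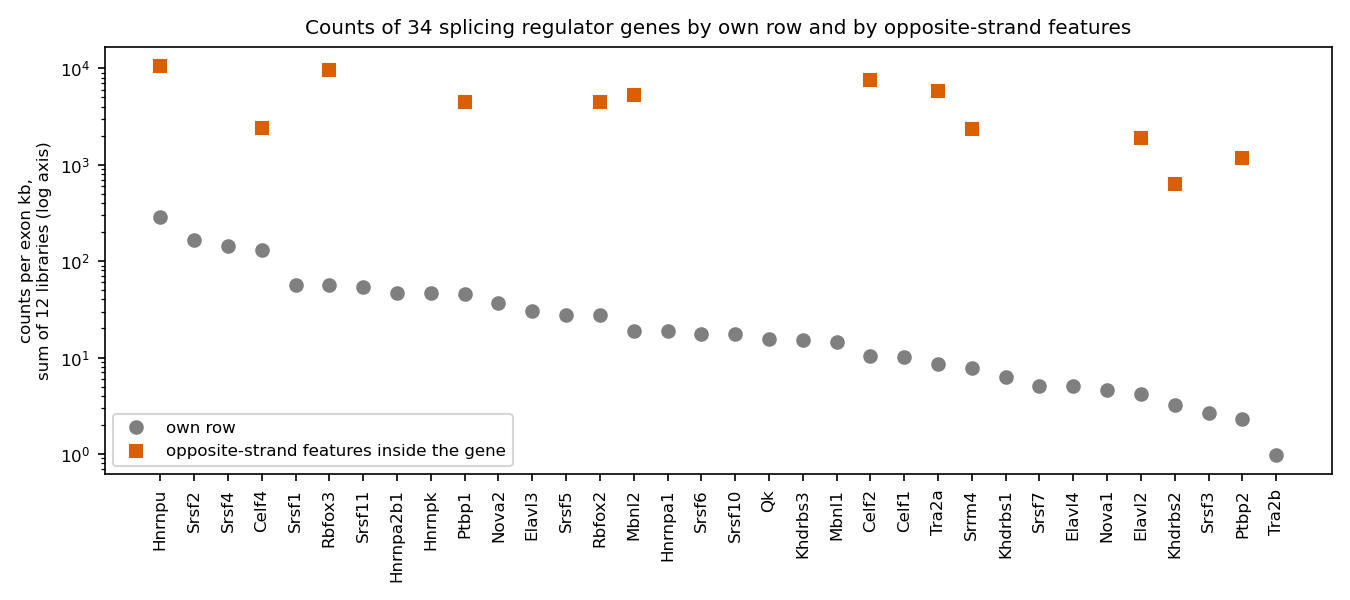
Counts per kb of exon (log axis), added over all 12 libraries, for the own row of each of the 34 genes (grey circles) and for the opposite-strand features inside 12 of them (orange squares). Every square lies above the circle of its gene.

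Of the 18 features, 16 lay in introns of the splicing regulator and 2 lay over its exons. The intron features were Gm43980 in Tra2a, Srrm4os in Srrm4, Gm26679 in Mbnl2, Gm11750 in Rbfox3, 1700109K24Rik in Rbfox2, Gm42804 in Ptbp2, Gm12653 in Elavl2, 2 features in Celf4, 3 in Celf2 and 4 in Khdrbs2. The exon features were Gm17134 at the 3′ end of Ptbp1 and Cox20, a gene for an assembly factor of cytochrome c oxidase, which overlaps the 3′ end of Hnrnpu. For the 9 genes with 1 feature the sum and the feature are the same counts and not separate results. Gm37340 in Celf2 and Gm3227 in Celf4 also have over 10% of their exon bases inside a second gene opposite to them. Their reads may be of that gene. Gm42804 and Gm12653 are annotated as processed pseudogenes, copies of spliced mRNAs, so their reads may be shared with a parent gene.

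The sequences under 5 of the intron features are shown because the values of their genes are described most closely below. Each is the start of the feature's longest exon read 5′ to 3′ along the strand of the splicing regulator, up to 300 bases, from the GENCODE M21 transcripts, and no base of them lies in an annotated exon of the regulator. Capitals mark 3 motifs. GGTAAG is a core of the 5′ splice site that pairs with U1, AATAAA is the common polyadenylation signal, and TGCATG is the element bound by RBFOX proteins, which was added to the search after the sequences had been seen.
Tra2a, intron, chr6:49256163-49256462, minus strand: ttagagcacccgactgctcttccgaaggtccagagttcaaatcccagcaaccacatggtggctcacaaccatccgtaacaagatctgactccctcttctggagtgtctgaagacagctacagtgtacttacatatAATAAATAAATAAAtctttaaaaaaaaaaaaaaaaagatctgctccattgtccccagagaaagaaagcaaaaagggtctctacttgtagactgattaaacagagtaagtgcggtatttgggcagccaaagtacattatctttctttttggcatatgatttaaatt
Srrm4, intron, chr5:116465188-116465487, minus strand: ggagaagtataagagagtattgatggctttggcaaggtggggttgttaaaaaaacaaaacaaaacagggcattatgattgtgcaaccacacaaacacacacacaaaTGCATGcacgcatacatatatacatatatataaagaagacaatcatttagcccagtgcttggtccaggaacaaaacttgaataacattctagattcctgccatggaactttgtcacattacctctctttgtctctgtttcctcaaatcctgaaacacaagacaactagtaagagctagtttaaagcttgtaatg
Mbnl2, intron, chr14:120384859-120385158, plus strand: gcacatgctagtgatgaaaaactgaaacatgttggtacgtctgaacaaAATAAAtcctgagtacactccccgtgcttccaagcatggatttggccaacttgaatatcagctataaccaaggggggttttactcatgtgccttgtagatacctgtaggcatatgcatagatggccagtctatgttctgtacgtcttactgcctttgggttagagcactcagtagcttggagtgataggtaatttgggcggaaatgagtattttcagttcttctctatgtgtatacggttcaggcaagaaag
Rbfox3, intron, chr11:118793601-118793828, minus strand: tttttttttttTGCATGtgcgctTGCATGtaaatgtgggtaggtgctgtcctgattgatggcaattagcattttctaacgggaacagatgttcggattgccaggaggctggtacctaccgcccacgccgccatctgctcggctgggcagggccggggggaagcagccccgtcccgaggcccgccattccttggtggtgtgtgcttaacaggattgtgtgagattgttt
Ptbp2, intron, chr3:119757338-119757515, minus strand: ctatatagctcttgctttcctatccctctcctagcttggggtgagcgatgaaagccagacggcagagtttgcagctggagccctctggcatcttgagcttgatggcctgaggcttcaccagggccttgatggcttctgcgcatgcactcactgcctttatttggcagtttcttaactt

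The Tra2a window held 3 overlapping copies of AATAAA and the Mbnl2 window held 1. On the strand of the overlapped gene, 14.2% of 2688 windows of this length from features of the same kind held AATAAA and 35.2% held it on the other strand. The Rbfox3 window, a whole exon of 228 bases, held 2 copies of TGCATG on the strand of Rbfox3. Of 2950 windows of that length, 8.03% held TGCATG on that strand and 0.610% held it at least 2 times. Because TGCATG was added after these sequences had been seen, its shares do not measure how rare the copies are. The Srrm4 window held 1 copy of TGCATG, and 9.93% of windows of 300 bases held at least 1. None of the 5 windows held GGTAAG on the gene's strand, which 4.84% of windows of 300 bases did. A run of 20 bases in the Tra2a window, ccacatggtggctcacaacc, also occurred in 44 of 3439 other intron features that were tested (1.28%), so part of this window is repeated sequence.

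Tra2a encodes a splicing activator that binds exonic enhancers together with SR proteins. The gene lies at chr6:49243924-49264033 on the minus strand, and its feature Gm43980, at chr6:49254851-49256462, is 1612 bases long and lies between the first coding exon and the next annotated exon, 1743 bases downstream. That exon, of 306 bases, occurs only in a transcript annotated for nonsense-mediated decay. An annotated retained-intron transcript ends 3781 bases upstream of the feature, and the first exon of the coding transcripts ends 7376 bases upstream. The sum for Tra2a was 674, 607 and 535 CPM in naive input, 693, 853 and 882 in MECS input, 353, 536.5 and 266 in naive U1 and 677, 674 and 697 in MECS U1. The naive U1 libraries were the lowest of the 4 groups on average, at 385 ± 138 CPM (SD, n = 3), while the MECS U1 libraries lay close together at 683 ± 12.4 CPM.

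**Figure D2:**
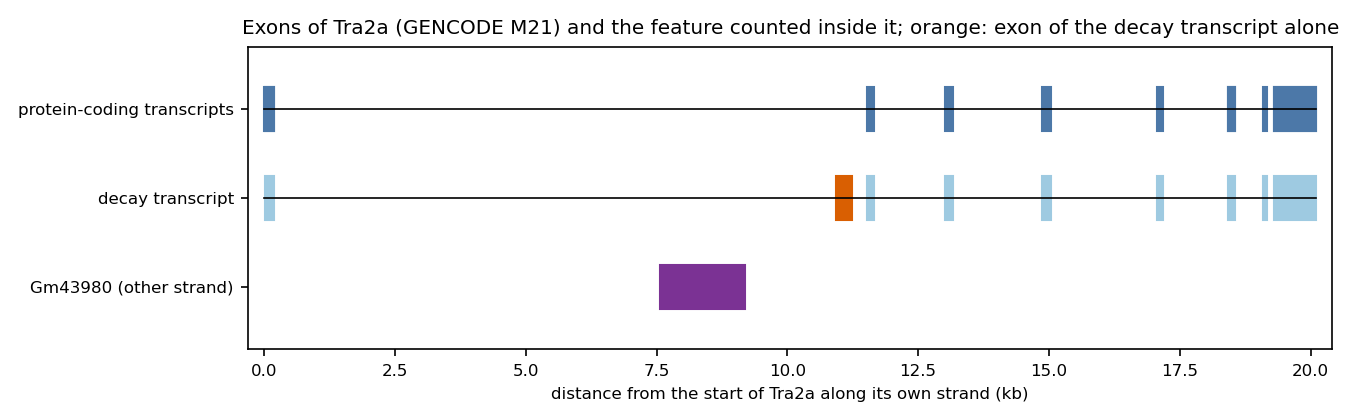
Exons of the protein-coding and decay transcripts of Tra2a and the position of Gm43980, by distance in kb from the start of Tra2a along its own strand. The feature lies in the first intron, upstream of the exon of 306 bases (orange) that belongs to the decay transcript alone.

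In naive brain the Tra2a sum was lower in U1 RNA than in input, with a log2 change of -0.63 (SE 0.18) and an adjusted p of 0.0126 (quasi-likelihood test of edgeR, Benjamini-Hochberg adjusted over all sums tested). The groups overlapped by a narrow margin, because naive U1 2, the deepest library, reached 536.5 CPM against 535 in naive input 3. Without naive U1 2 the change was -0.97 (adjusted p = 9.87e-05). The call was lost without naive input 1 (adjusted p = 0.0985), naive input 2 (0.0682), naive U1 1 (0.0574) or naive U1 3 (0.0648). In MECS brain the same ratio was -0.24 (SE 0.12, adjusted p = 0.247). All 6 animals had a log2 ratio of U1 to input below 0, at -0.93, -0.18 and -1.0 in naive mice and -0.04, -0.34 and -0.34 in MECS mice.

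MECS against naive U1 RNA gave the largest positive change among the 12 sums for Tra2a, 0.80 (SE 0.18), 1.74-fold, and every MECS library lay above every naive one. Its adjusted p of 0.0600 by edgeR did not pass 0.05. In input the change was 0.40 (SE 0.13, adjusted p = 0.147), again with groups that did not overlap. This comparison and the U1 to input ratio of naive brain share the naive U1 libraries, so the low naive U1 values enter both.

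Srrm4 encodes a neuronal SR-related protein that promotes the inclusion of neuronal microexons. Its gene lies at chr5:116439275-116591817 on the minus strand, and Srrm4os, annotated as an antisense RNA at chr5:116438720-116465487, has 96.7% of its exon bases inside it. The sum was 493, 443 and 505 CPM in naive input against 648, 693 and 813 in MECS input. It rose with MECS from 480.4 ± 32.8 to 718 ± 85.1 CPM (SD, n = 3 each), 1.47-fold, with a log2 change of 0.55 (SE 0.13) and an adjusted p of 0.0240 by edgeR. Srrm4 was the 1 gene of the 12 that passed the test in this comparison, in which 1.74% of all 3449 sums passed, 1.45% higher and the rest lower.

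That call depended on few libraries, and so did the number over all sums. Srrm4 had an adjusted p of 0.0723 without naive input 1, 0.165 without naive input 2 and 0.216 without MECS input 3, where 16, 12 and 13 of all sums passed in place of 60. Among all 10402 features rather than sums, the same counts under Srrm4os gave an adjusted p of 0.0749 by edgeR. In U1 RNA the sum was 434, 497 and 336 CPM in naive and 665, 566 and 755 in MECS libraries, groups that did not overlap. That change of 0.63 (SE 0.16) had an adjusted p of 0.0654 by edgeR. The U1 to input ratio of Srrm4 was -0.18 (SE 0.15) in naive and -0.12 (SE 0.13) in MECS brain, neither past the test.

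Rbfox3 encodes NeuN, the RBFOX protein used to mark mature neurons, and lies at chr11:118489762-118911597 on the minus strand. Its feature Gm11750 is annotated as a long intergenic noncoding RNA at chr11:118791372-118793828, inside an intron. The sum was 230.1, 278 and 278 CPM in naive input, 337, 347 and 338 in MECS input, 480.5, 437 and 394 in naive U1 and 466, 427 and 393 in MECS U1. Every U1 library of either condition lay above every input library.

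Rbfox3 was higher with U1 than in input in naive brain by 0.74 (SE 0.15), 1.68-fold, with an adjusted p of 0.000405 by edgeR. It was the only one of the 12 sums to pass in that direction, and the call held without each of the 6 libraries in turn (adjusted p at most 0.00786). The summed neuronal markers went the other way, as given above. In MECS brain the change was 0.33 (SE 0.12, adjusted p = 0.0900 by edgeR), and with the animal as a replicate block it was 0.33 with an adjusted p of 0.0229 (0.0229 to 0.152 over 9 alternatives). All 6 animals had a ratio above 0, at 1.06, 0.65 and 0.50 in naive and 0.47, 0.30 and 0.22 in MECS mice. The change of the ratio with MECS was -0.41 (SE 0.19), with an unadjusted p of 0.0373 and an adjusted p of 0.999 by edgeR. In input the sum was 0.36 higher after MECS (SE 0.14, adjusted p = 0.254) without overlap, and in U1 RNA it differed by -0.04 (SE 0.13).

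**Figure D3:**
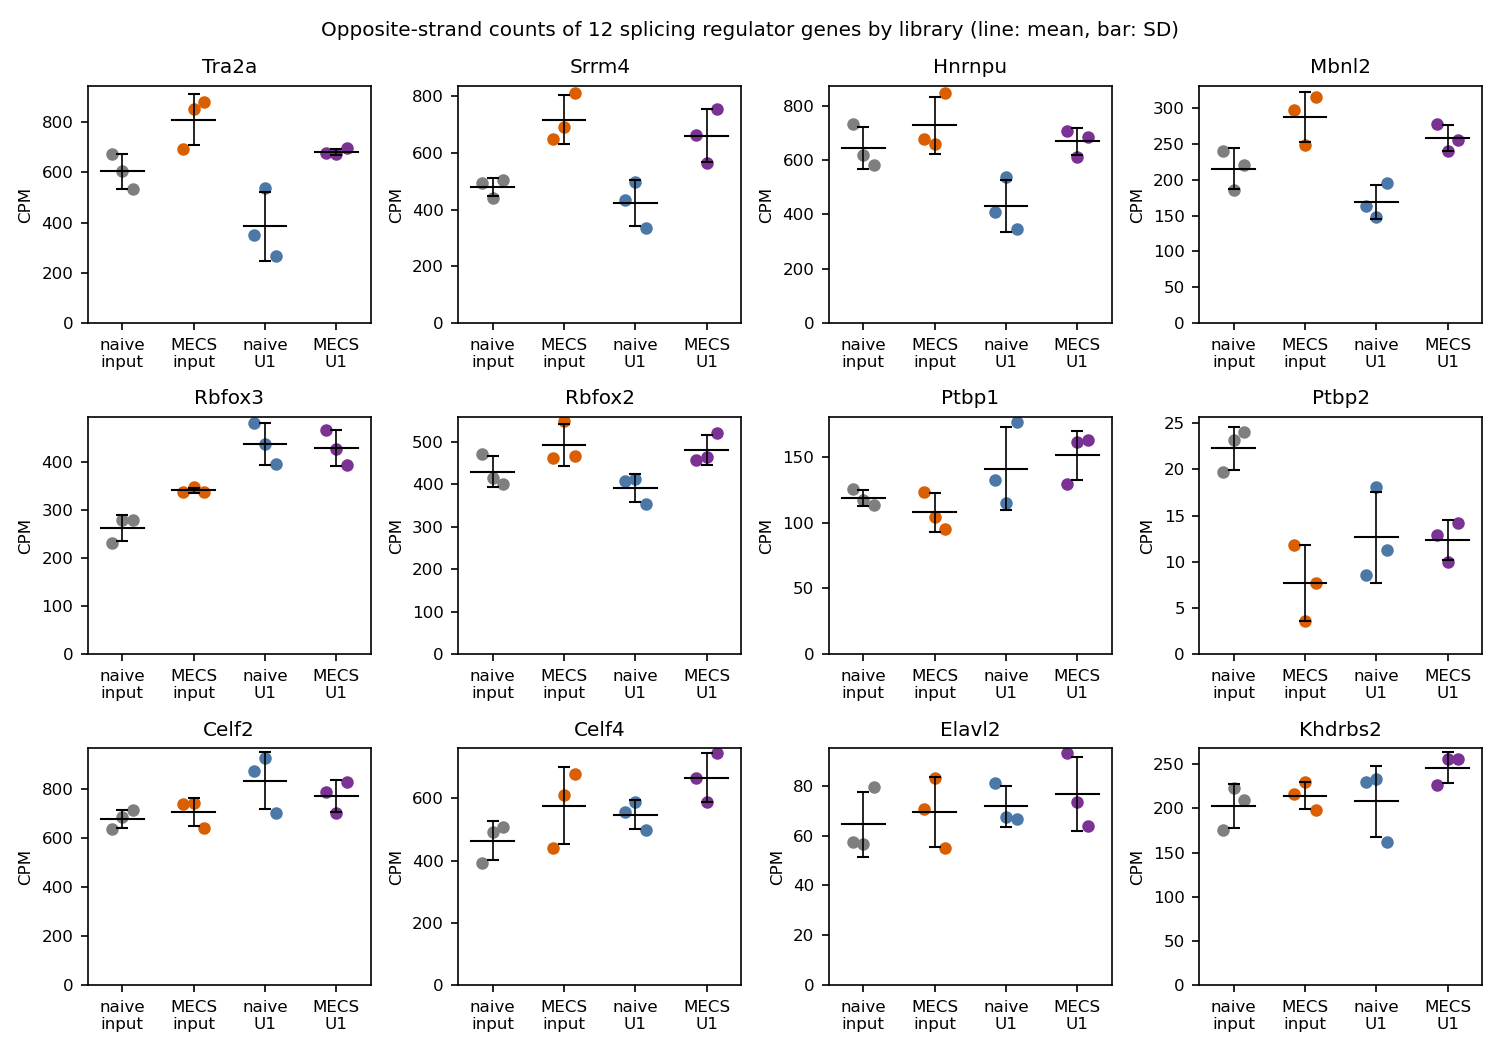
CPM of the opposite-strand sum in each library for the 12 genes, by group, with the mean (line) and SD (bar). Rbfox3 is higher in both U1 groups than in both input groups. In Tra2a, Srrm4, Hnrnpu, Mbnl2 and Rbfox2 the naive U1 group has the lowest mean of the 4 groups.

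Hnrnpu encodes a nuclear scaffold protein that binds pre-mRNA and chromatin, and lies at chr1:178321108-178337797 on the minus strand. Its sum is the row of Cox20 (chr1:178319130-178322693), a protein-coding gene, so reads of Cox20 mRNA and of the 3′ end of Hnrnpu cannot be told apart in it. The sum was 732, 619.7 and 581 CPM in naive input, 677, 657 and 847 in MECS input, 408, 536 and 348 in naive U1 and 708, 612 and 686 in MECS U1. All naive U1 libraries lay below all libraries of the other groups.

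In naive brain the Hnrnpu sum was lower with U1 by 0.57 on the log2 scale (-0.57, SE 0.16, adjusted p = 0.0108 by edgeR), 0.674-fold, and without naive input 1 the adjusted p was 0.0951. MECS brain gave -0.12 (SE 0.13), and the change of the ratio was 0.46 (SE 0.21), with an unadjusted p of 0.0403 and an adjusted p of 0.999. MECS against naive U1 RNA gave 0.61 (SE 0.15, adjusted p = 0.0657), against 0.15 (SE 0.13) in input. The own row of Hnrnpu, with 145 to 541 counts the best counted of the 34, had log2 changes of 0.01 (SE 0.16) with MECS in input, -0.02 (SE 0.16) with MECS in U1 RNA, and 0.09 (SE 0.17) and 0.05 (SE 0.14) with U1 against input in naive and MECS brain. The own row and the opposite-strand sum of this gene therefore gave different values in the same libraries. Because the overlap is mutual, reads of Cox20 cannot be told apart in the own row either.

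Mbnl2 encodes a muscleblind protein that regulates alternative splicing in the adult brain, and lies at chr14:120275669-120431697 on the plus strand, with Gm26679 at chr14:120384859-120388985. Its sum was 241, 185 and 221 CPM in naive input, 298, 249 and 317 in MECS input, 163, 148 and 195 in naive U1 and 278, 241 and 256 in MECS U1. Both MECS groups lay wholly above their naive counterparts. The change was 0.60 (SE 0.14, adjusted p = 0.0620 by edgeR) in U1 RNA and 0.38 (SE 0.15, adjusted p = 0.243) in input. With U1 against input it was -0.36 (SE 0.16, adjusted p = 0.146) in naive and -0.15 (SE 0.13) in MECS brain. The own row of Mbnl2, with 10 to 34 counts per library, differed by -0.11 (SE 0.39) with MECS in input and by -0.01 (SE 0.39) in U1 RNA.

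Ptbp2 encodes the neuronal polypyrimidine tract protein, which replaces PTBP1 as neurons form. Its sum, the pseudogene row Gm42804, rested on 23, 16 and 32 counts in naive input, 16, 4 and 8 in MECS input, 7, 36 and 13 in naive U1 and 17, 13 and 23 in MECS U1. As CPM these were 19.7, 23.2 and 24.1, then 11.8, 3.57 and 7.70, then 8.60, 18.1 and 11.2, then 12.9, 9.95 and 14.2. Naive input lay above every other library. The change with MECS in input was -1.51 (SE 0.41), the largest in size among the 12, with an adjusted p of 0.0546 by edgeR that did not pass. U1 against input was -0.71 (SE 0.35, adjusted p = 0.192) in naive and 0.65 (SE 0.43, adjusted p = 0.409) in MECS brain.

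Ptbp1 encodes the PTB protein of non-neuronal and precursor cells, a splicing repressor. Its feature Gm17134 lies over the last exons at chr10:79863937-79864434 on the minus strand, opposite to Ptbp1. The sum was 126, 117 and 114 CPM in naive input, 124, 105 and 95.2 in MECS input, 133, 115 and 176 in naive U1 and 129, 162 and 163 in MECS U1. In MECS brain all U1 libraries lay above all inputs, with a change of 0.48 (SE 0.16) and an adjusted p of 0.0601 by edgeR. Of all 3564 sums, 504 separated in that direction. With the animal as a replicate block this was 0.48 with an adjusted p of 0.0122 (0.0122 to 0.103 over 9 alternatives), and without MECS input 1 it was 0.59 with an adjusted p of 0.0435. The naive groups overlapped (0.25, SE 0.18). The MECS changes were -0.16 (SE 0.17) in input and 0.09 (SE 0.17) in U1 RNA.

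Celf2 and Celf4 encode CELF proteins, which regulate splicing and mRNA stability in neurons, and their sums were among the highest of the 12. Celf2 was at 638, 686 and 714 CPM in naive input, 741, 742 and 642 in MECS input, 876, 928 and 704 in naive U1 and 788, 703 and 829 in MECS U1. The groups overlapped in every comparison, and the largest change was 0.31 (SE 0.14, adjusted p = 0.166 by edgeR) with U1 in naive brain. Of its 3 features, Gm24340, annotated as a small nuclear RNA, gave 0.59 (SE 0.23) there, Gm37340 gave 0.34 (SE 0.16) and Gm13389 gave 0.25 (SE 0.16), none past the test. With MECS in U1 RNA, Gm24340 was 71.3, 59.4 and 53.6 CPM in naive and 39.4, 39.0 and 47.0 in MECS libraries (-0.55, SE 0.21, adjusted p = 0.323 by edgeR), while Gm13389 and Gm37340 gave -0.13 (SE 0.15) and -0.05 (SE 0.15).

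Celf4 was at 393, 491 and 508 CPM in naive input, 441, 611 and 679 in MECS input, 557, 589 and 498 in naive U1 and 667, 589 and 744 in MECS U1. MECS gave 0.29 (SE 0.15) in input, where groups overlapped, and 0.27 (SE 0.14, adjusted p = 0.422 by edgeR) in U1 RNA, where MECS U1 2 lay just above the highest naive library. Its feature 0710001A04Rik gave 0.50 (SE 0.18, adjusted p = 0.248 by edgeR) in input and 0.41 (SE 0.16, adjusted p = 0.331) in U1 RNA, without overlap in either. In that direction 924 of 10402 features separated in input and 979 of 11141 in U1 RNA. Gm3227, with 70.3% of the sum's counts, gave 0.20 (SE 0.17) and 0.21 (SE 0.14) with overlap.

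The sums of the other 3 genes did not pass the test in any comparison. Rbfox2, a broadly expressed RBFOX protein, ranged from 402 to 471 CPM in naive input, 463 to 549 in MECS input, 353 to 413 in naive U1 and 457 to 520.4 in MECS U1. Its MECS change in U1 RNA was 0.28 (SE 0.13, adjusted p = 0.356 by edgeR), without overlap. Elavl2, a neuronal ELAV protein, lay between 54.8 and 93.1 CPM over all libraries, and Khdrbs2, the STAR protein SLM1, between 162 and 256. Their log2 changes in the 4 comparisons of 2 groups stayed between 0.05 and 0.23, with groups that overlapped throughout.

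**Figure D4:**
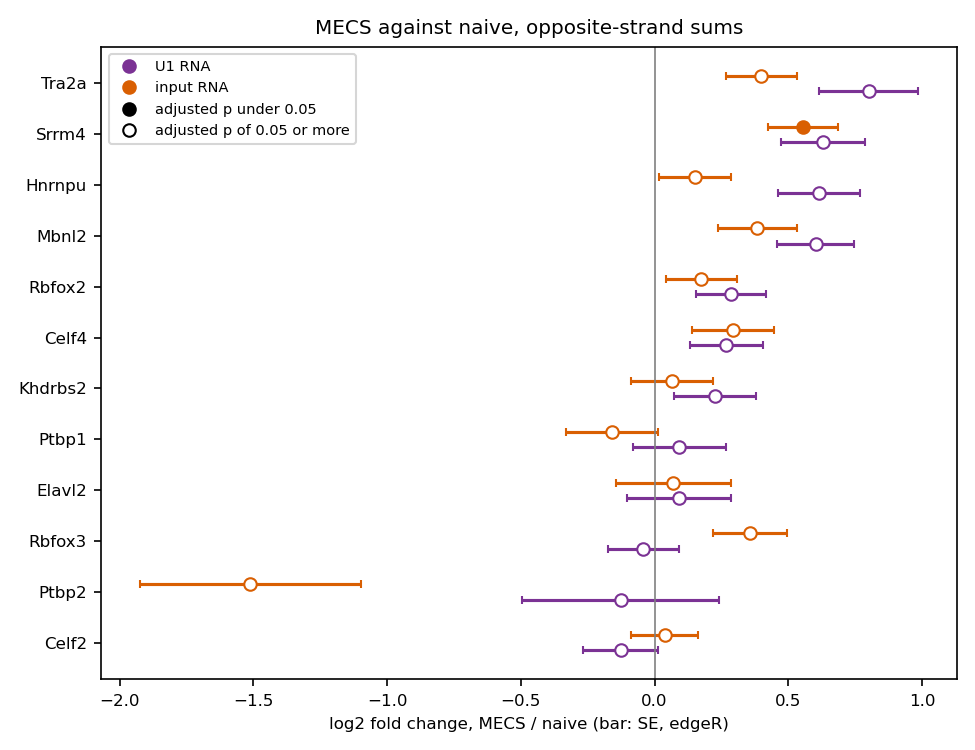
Log2 fold change of MECS against naive for the 12 opposite-strand sums, in U1 RNA (purple) and input RNA (orange), with bars for the SE by edgeR and filled circles for an adjusted p under 0.05. Srrm4 in input is the 1 filled circle, and Ptbp2 in input lies farthest from 0 at -1.51.

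Across the 12 sums, MECS against naive asked how these RNAs differed 90 min after the convulsion. Because the genes were chosen with earlier results of these data known, shares set beside all sums do not test the set. In input 10 of 12 changes were above 0, against 52.0% of all 3449 sums, with a median of 0.16 against 0.02 over all sums. Groups did not overlap for 4 genes in the higher direction (12.2% of all sums) and for 1 in the lower (5.13%). An unadjusted p under 0.05 was reached by 5 of 12, against 12.1% of all sums. In U1 RNA 9 of 12 were above 0, against 56.3% of all 3604 sums, with a median of 0.25 against 0.04 over all sums. None of the 12 passed there, where 0.444% of all sums did, and 5 had an unadjusted p under 0.05 by edgeR against 13.2% of all sums. By DESeq2, and by edgeR with all 12 libraries in 1 fit, Tra2a, Srrm4, Hnrnpu and Mbnl2 passed, among 59 and 66 of all sums where the main edgeR test called 16.

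Single libraries moved that count in U1 RNA, and the number over all sums, 16, moved too. Without naive U1 2, 3 of the 12 passed (Tra2a, Hnrnpu and Srrm4) among 115 of all sums. Without naive U1 3 it was 1 (Mbnl2) among 9, and without MECS U1 2 it was 4 among 101. None of the 12 passed without naive U1 1 (5 of all sums), MECS U1 1 (2) or MECS U1 3 (8). The 6 genes whose MECS and naive U1 libraries did not overlap were Tra2a, Mbnl2, Srrm4, Hnrnpu, Rbfox2 and Celf4, all higher after MECS, a direction in which 12.9% of all sums separated. As a share of all gene counts, the 18 features took 0.400, 0.406 and 0.409% of naive input, 0.449, 0.536 and 0.540% of MECS input, 0.435, 0.457 and 0.353% of naive U1 and 0.515, 0.506 and 0.521% of MECS U1. In both kinds of RNA the MECS libraries had the larger shares. These shares were not scaled, and no share of other features is set beside them. They do not test the set, whose genes were chosen with earlier results known.

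**Figure D5:**
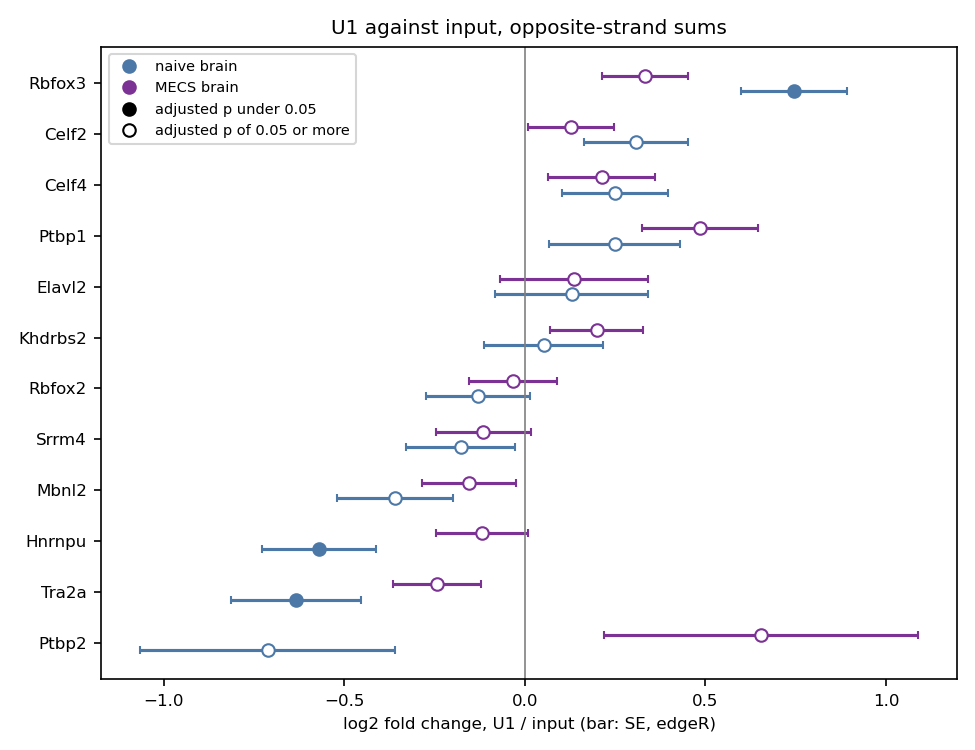
Log2 fold change of U1 against input for the 12 opposite-strand sums, in naive (blue) and MECS brain (purple), with bars for the SE by edgeR and filled circles for an adjusted p under 0.05. In naive brain Rbfox3 lies above 0 and Hnrnpu and Tra2a lie below, and no MECS value is filled.

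U1 against input asked which of these RNAs were recovered more or less with the U1 antibody. In naive brain 3 of 12 sums passed, Rbfox3 higher and Hnrnpu and Tra2a lower, where 16.1% of all 3526 sums passed, 7.03% higher and 9.1% lower. The median was -0.04 against 0.03 over all sums, with 6 genes on either side of 0. Groups did not overlap for 1 gene higher and 2 lower, and for 555 and 567 of all sums. In MECS brain none of 12 passed, where 11.4% of 3564 did, and 2 (Ptbp1 and Rbfox3) had an unadjusted p under 0.05 by edgeR, which 22.8% of all sums had. With the animal as a block both passed, while the number over all sums went from 405 to 640. The median there was 0.13 against 0.05, and groups did not overlap for 2 genes, both higher, and for 504 of all sums in that direction. The spread of the 12 changes ran from -0.71 to 0.74 in naive brain and from -0.24 to 0.65 in MECS brain.

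Whether MECS altered the U1 to input ratio was tested as an interaction over the 12 libraries, with no term for the animal. The interaction was not past the test for any of the 12 genes, nor for any of the 3742 sums (0% called, by edgeR and by DESeq2). Ptbp2 at 1.37 (SE 0.56), Rbfox3 at -0.41 and Hnrnpu at 0.46 had an unadjusted p under 0.05 by edgeR, which 3.10% of all sums had, and an adjusted p of 0.999. The value for Tra2a was 0.39 (SE 0.24) and that for Srrm4 was 0.07 (SE 0.21).

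By their own rows 17 to 20 of the 34 genes were tested in each comparison, and none passed. Of all features 0.644% passed with MECS in input, 0.386% with MECS in U1 RNA, and 10.5 and 8.51% with U1 in naive and MECS brain. Of the 19 own rows tested with MECS in U1 RNA, Qk, a STAR protein of glia, was at 18.4, 18.1 and 25.9 CPM in naive and 10.6, 6.89 and 13.0 in MECS libraries (-1.02, SE 0.37, adjusted p = 0.286 by edgeR). Mbnl1, the muscleblind paralogue, gave 1.10 (SE 0.43, adjusted p = 0.339) with overlapping groups. Hnrnpa2b1, an hnRNP that packages nascent transcripts, was lower with U1 in MECS brain by -0.79 (SE 0.31, adjusted p = 0.125 by edgeR), without overlap. Of all 10791 features, 1360 separated in that direction. The 7 SR genes whose rows were tested with MECS in U1 RNA or elsewhere (Srsf1, Srsf2, Srsf4, Srsf5, Srsf6, Srsf10 and Srsf11) had 1 to 79 counts per library, and none passed. Medians of the own rows were 0.11 with MECS in input and -0.17 in U1 RNA, and those of all features were -0.02 in both.

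Other splicing regulators give the setting of these values. Of 71 further regulator genes, 18 had a tested sum. None passed with MECS in input or in U1 RNA, where only 1.74 and 0.444% of all sums did. Their medians were 0.0034 and 0.12, against 0.02 and 0.04 over all sums. Nearest was Srrm2, a core SR-related protein, at 0.63 in input (SE 0.17, adjusted p = 0.0511 by edgeR). With U1 against input 1 of the 18 sums passed in naive and 2 in MECS brain, where 16.1 and 11.4% of all sums did. The sum of Matr3, a nuclear matrix RNA-binding protein, was lower by -1.25 (SE 0.17) in naive and -1.02 (SE 0.15) in MECS brain, both past the test. Celf5, a further CELF gene, was lower in MECS brain (-0.42, SE 0.12, adjusted p = 0.0326 by edgeR). By own rows, 1 of 31 tested passed with MECS in input, where 0.644% of all features did. This was Rbm20, lower by -1.74 (SE 0.41), with means of 21.5 CPM in naive and 6.52 in MECS input. The opposite-strand sum of Rbm20 had means of 18.9 and 15.7 CPM there. With U1 in naive brain 1 of 34 own rows passed lower and 1 higher, where 10.5% of all features passed. Srpk2, an SR protein kinase, was lower (-0.67, SE 0.21) with overlapping groups, and Celf3 was higher (0.56, SE 0.17). Among 32 genes of the core spliceosome outside U1, 2 sums were tested and none passed in any comparison, where at most 16.1% of all sums did. By own rows 1 of 9 passed with U1 in naive brain and 1 of 11 in MECS brain. Of all features 10.5 and 8.51% passed there. The row was that of Eftud2, a U5 GTPase, higher with U1 by 2.05 (SE 0.21) in naive and 1.76 (SE 0.18) in MECS brain.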

How the data were processed

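For each library the authors deposited raw counts by Ensembl gene. The submitters' processing notes name the build mm10 and, without roles, Salmon 1.4, StringTie 2.1.3, HISAT2 2.2.0, Trimmomatic 0.39, DESeq2 and FastQC. Per the labels' protocols, libraries were made with a stranded total RNA kit after depletion of ribosomal RNA and read single-end for 100 bp. Neither the counting program nor its strand setting is given in the sources. Of 55471 features, 55230 matched GENCODE M21. Rows that name no gene stayed out of library sizes and tests, and reads in no feature were 88.3 to 91.3% of listed reads.

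Groups came from the sample titles. The members and gene lists were chosen with earlier results of these data known. Sums and features were tested in edgeR 4.0.16 (R 4.3.3) by quasi-likelihood, with TMM factors of the feature table and filterByExpr defaults. Benjamini-Hochberg adjustment was at 0.05 over the whole table. Only the groups compared were in the fit, or all 12 libraries for the interaction. These main fits had no term for the animal. The pairing of U1 and input was used only in the replicate block and the ratios per animal. CPM are counts relative to library size scaled by TMM factors of the 12 libraries, each SE is the log2 change divided by the square root of F, and ratios per animal had 0.5 CPM added. With 3 animals against 3 an exact test cannot go below p = 0.1, so ratios were not tested. On simulated counts for MECS against naive input, 66.0% of changed sums with a log2 change of 1 and 100% with 2 were called among 3513 sums, and 41.1 and 93.5% among 10464 features. False calls numbered 13 among the sums and 4 among the features. Every simulated row had the same dispersion, and the simulated sums kept the scaling factors of the real data.

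Described library by library were genes that passed in any comparison, the 3 with the smallest p of the sum in each, the 5 with the highest mean CPM of the sum, and Khdrbs1. From the list of other regulators, those that passed and up to 3 more per comparison could be named. Deviations from the group means correlated at 0.02, -0.10 and -0.02 between input and U1 libraries of the same naive animal and at 0.11, 0.22 and 0.12 in MECS animals. Alternatives were RLE or library size scaling, no filter or 1 CPM in 3 libraries, DESeq2 1.42.0, all libraries in 1 fit, a replicate block, features inside no second gene, 90% of exon bases inside, and leaving out each library. A second antibody's libraries were not analysed here.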

Additional observations from a re-analysis of the deposited data

Results flagged for a closer look

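The U1 to input ratio of Ptbp2 was below 0 in all 3 naive animals (log2 ratios of -1.15, -0.35 and -1.07) and above 0 in all 3 MECS animals (0.12, 1.36 and 0.85), so the means differed by 1.63. Ratios on opposite sides of 0 in naive and MECS animals were themselves a rule for a flag, so this pattern was selected. How many of all sums show it was not counted. The interaction fitted over the 12 libraries was 1.37 (SE 0.56), with an unadjusted p of 0.0201 and an adjusted p of 0.999 by edgeR (0.697 to 1.00 over the alternatives and left-out libraries). These ratios rest on 4 to 36 counts per library in a feature annotated as a processed pseudogene.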

How the results depend on the processing

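Of the 12 sums, 1 passed with MECS in input (Srrm4), and 1 under RLE scaling, DESeq2 and all libraries in 1 fit. It was 2 (with Ptbp2 lower) without a filter, with the CPM filter, with features inside no second gene and with 90% of exon bases inside, 3 (with Tra2a higher) with library size scaling, and 0 to 3 when a library was left out. The 0 sums with MECS in U1 RNA became 4 without a filter, with DESeq2 and with all libraries in 1 fit, 2 (Mbnl2 and Tra2a) with features inside no second gene, 1 (Tra2a) with 90% inside, and 0 to 4 with a library left out. With U1 in naive brain it was 3 under all 9 alternatives and 1 to 3 with a library left out, and Rbfox3 passed in all of these. With U1 in MECS brain it was 0 to 1 with a library left out, and the interaction gave 0 throughout. At the level of features, the 0 with MECS in input became 1 (Srrm4os) with library size scaling and DESeq2 and 0 to 2 with a library left out. The 0 with MECS in U1 RNA became 1 with RLE and library size scaling (Gm43980), 3 with the CPM filter and with all libraries in 1 fit, 4 without a filter and with DESeq2, and 0 to 3 with a library left out. With U1 in naive brain, 3 features became 2 with library size scaling (Cox20 was lost) and 1 to 3 with a library left out. Over all sums, the 60 called with MECS in input became 48 (DESeq2) to 111 (library size scaling) without a block and 12 to 96 with a library left out. The 16 in U1 RNA became 17 to 141 (no filter) without a block and 2 to 115 with a library left out. Log2 changes were recomputed under the alternatives for 15 pairs of a sum and a comparison, 3 sums in each of the 5 comparisons, and none of these reversed. Other named changes were not recomputed, and the cause of these shifts was not tested.

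Replicate numbers shared by naive and MECS mice name separate animals, whose deviations correlated at -0.03 to 0.07 in input and at -0.10 to 0.01 in U1 RNA. With the number as a replicate block, 3 sums passed with MECS in input (Ptbp2, Tra2a and Srrm4), 161 over all sums, and 1 feature (Srrm4os), and with MECS in U1 RNA 1 feature (Gm43980) and 0 of the 12 sums, with 3 over all sums in place of 16. With the animal as a replicate block, U1 against input in MECS brain gave 2 sums (Ptbp1 and Rbfox3) and 2 features (Gm11750 and Gm17134), where the number over all sums went from 405 to 640, and no other call on a sum changed.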
